A study of Mus musculus with 6 samples.

Results

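Ablim1 and Ablim3 are members of the abLIM (actin-binding LIM) protein family. They were taken from a gene table of 38087 rows as the rows that carry their gene symbols, which gave 2 genes with 1 row each, and both were among the 16337 genes that passed a filter on low counts. Ablim3 was chosen by its counts in these libraries, for groups that did not overlap between Sgo1-/+ and WT and varied little within, and Ablim1 was chosen as its paralog, so the difference of Ablim3 between the genotypes is described here without a test. Dmtn (dematin, listed as Epb4.9), which shares the actin-binding headpiece, was set beside them.

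The libraries were made from the cerebrum of C57BL6 mice of 24 months, with 3 WT mice, 3 Sgo1-/+ mice and 1 library per mouse. Sgo1-/+ mice are haploinsufficient for Shugoshin-1, a protector of cohesin at centromeres, in every tissue, and the WT mice served as their controls. By the study's methods, the dissected piece held the cortex and the hippocampus, while the cerebellum, the medulla and the olfactory bulb had been removed. Each group held 1 male, which was replicate 1 of WT and replicate 2 of Sgo1-/+, and 2 females. All WT libraries came from run 258 and all Sgo1-/+ libraries from run 259, and the effects of genotype and run cannot be told apart. Values of the 3 libraries of a group are listed in the order of the replicates.

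abLIM proteins carry LIM zinc-binding domains in their N-terminal part and a villin headpiece at the C-terminus, by which they bind actin filaments. The invertebrate homolog UNC-115 acts in axon guidance, downstream of the netrin receptor UNC-40 (DCC in mammals) and of Rac GTPases. Ablim3 binds STARS, the product of Abra, and can promote transcription by serum response factor (SRF) through its myocardin-related cofactors (MRTF).

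Library totals were between 11123917 and 12505561 estimated counts, and no gene passed an adjusted p-value of 0.05 in edgeR's quasi-likelihood test (0 of 16337), with 333 genes (2.04%) at an unadjusted p under 0.05, of which 0.808% of all genes tested were higher and 1.23% lower in Sgo1-/+, and 3 genes past the adjusted threshold in DESeq2's Wald test. Those 3 were Ablim3, AA465934 and a row listed as LAMTOR3, and they are named here after their values were seen; Ablim3 was chosen on this contrast, so its call adds nothing. Sgo1 itself was at 0, 7 and 0 counts in WT and at 4, 2 and 0 counts in Sgo1-/+, too few to check the genotype labels. Xist and Ddx3y, the genes of X inactivation and of a Y-linked helicase, matched the labelled sex in 6 of 6 libraries. WT replicate 1 stood apart, with a mean correlation to the other libraries of 0.932 against 0.964 to 0.968. It held 1575 CPM of 10 cerebellar granule cell markers against 86.4 to 168 in the other 5 libraries, with all 10 highest in it, and 126 CPM of 12 brain stem markers against 3.21 to 4.65, again with all 12 highest in it. These values go against the dissection that the methods state. It also held the lowest sums of cortex and striatum markers, 246 CPM of 10 genes and 369 CPM of 9 genes, against 440 to 641 and 1252 to 2972 in the other libraries. No marker was at or under 3 counts in all 6 libraries. The fold changes of Ablim3, Ablim1 and Dmtn, the ratio of Ablim3 to Ablim1 and some list medians are therefore given with and without it below. The correlations between genes and the mean levels per kilobase of WT and of all 6 libraries include it.

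Ablim3 (ENSMUSG00000032735) lies on chromosome 18 of mm10 from 61799395 to 61911852, on the minus strand, where the GENCODE annotation has 2 transcripts and 23 exons. Its normalized counts (estimated counts scaled to a common library size) were 599, 617 and 600 in WT and 391, 361 and 311 in Sgo1-/+. All 3 Sgo1-/+ libraries lay below all 3 WT libraries, with a gap of 208 counts between the nearest ones. The means were 605 ± 10.01 in WT and 354 ± 40.4 in Sgo1-/+ (SD, n = 3 each), so the Sgo1-/+ mean was 58.6% of the WT mean, a log2 fold change of -0.77 (SE 0.12). Because these values chose the gene, no test is given. Groups that do not overlap, with Sgo1-/+ lower, were found in 583 genes, 3.57% of those tested, and 115 of these had a log2 fold change at or under that of Ablim3.

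The 95% Poisson intervals of the single counts, scaled like the counts, reached down to 552 in the lowest WT library and up to 432 in the highest Sgo1-/+ library. Amplified copies carried no molecular identifiers, so such intervals cover counting error only. The spread of Ablim3 was smaller in WT than in Sgo1-/+. The coefficient of variation over the 3 WT mice was 1.65%, below the 4.05% that counting alone gives at this depth, and 0.826% of the tested genes (135 genes) varied as little or less in WT. In Sgo1-/+ it was 11.4% against 5.34% from counting, close to the 11.8% median of all tested genes in this group, whereas the WT median was 18.9%. A small spread was part of the choice, so these values are a description as well.

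**Figure D1:**
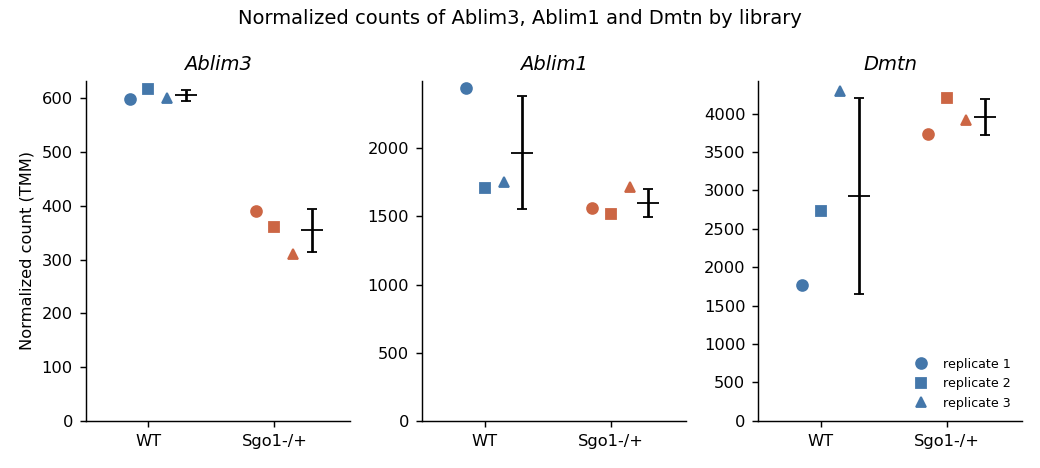
Normalized counts (vertical axes, from 0) of Ablim3, Ablim1 and Dmtn in 3 WT (blue) and 3 Sgo1-/+ (orange) libraries; the marker shape gives the replicate, and the horizontal line and bar give the mean and SD. Ablim3 was at 599 to 617 in WT and 311 to 391 in Sgo1-/+, while the groups of Ablim1 and Dmtn overlap.

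With each library left out in turn, its log2 fold change was between -0.85 (without Sgo1-/+ replicate 1) and -0.69 (without Sgo1-/+ replicate 3), and it was -0.78 without WT replicate 1. These values describe the same 6 counts by which Ablim3 was chosen. Within the males, Ablim3 was at 599 in the WT mouse and 361 in the Sgo1-/+ mouse, and within the females it was at 617 and 600 in WT and 391 and 311 in Sgo1-/+. With sex as a covariate, the log2 fold change was -0.77. In such bulk tissue, fewer cells that express Ablim3 and less Ablim3 RNA per cell cannot be told apart.

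Ablim1 (ENSMUSG00000025085) lies on chromosome 19 from 57032733 to 57314919, on the minus strand, and spans 282 kb with 21 annotated transcripts and 33 exons once overlapping exons are merged. Transcripts of Ablim1 start at several places, and the deposited count adds them up. The promoters are shown because the count of this gene, unlike that of Ablim3 with 2 transcripts, pools so many start sites. The RefSeq table of promoters (GRCm38.p6, 250 bases before and 50 after each start) held 5 windows for Ablim1. The 250 bases before the outermost start (63.2% G and C) and before the next start inside the gene (50.8%) read as follows, 5′ to 3′ on the minus strand, with TATAAA and GGGCGG on either strand in capitals.
Ablim1, chr19:57314920-57315169: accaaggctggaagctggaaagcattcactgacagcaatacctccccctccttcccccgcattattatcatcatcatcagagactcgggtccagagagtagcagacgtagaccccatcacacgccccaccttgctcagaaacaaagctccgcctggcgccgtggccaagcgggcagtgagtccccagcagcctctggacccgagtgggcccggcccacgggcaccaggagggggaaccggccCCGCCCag
Ablim1, chr19:57274669-57274918: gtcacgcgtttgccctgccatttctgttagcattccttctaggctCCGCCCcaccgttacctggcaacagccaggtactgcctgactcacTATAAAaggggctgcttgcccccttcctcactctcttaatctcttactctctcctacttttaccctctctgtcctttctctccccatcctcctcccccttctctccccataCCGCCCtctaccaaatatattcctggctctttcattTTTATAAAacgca

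TATAAA occurred in 2 of the 5 windows of Ablim1 and in 13.6% of the 32851 windows in the table, and GGGCGG in 3 of the 5 and in 35.7% of all windows. The CArG box, the site to which SRF binds, was found in none of the 5 windows (0, against 1.63% of all windows), and neither were TGACGTCA (1.79% of all windows) or CACGTG (7.15%). Both strands were searched, a CArG box can overlap TATAAA, and these matches describe letters only.

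Ablim1 was at 2444, 1705 and 1751 normalized counts in WT and at 1559, 1521 and 1716 in Sgo1-/+. WT replicate 1 was far above the other 5 libraries, which lay between 1521 and 1751, and Sgo1-/+ replicate 3 was just above WT replicate 2, so the groups overlapped. The means were 1967 ± 414 in WT and 1598 ± 103 in Sgo1-/+ (SD, n = 3 each). This gave a log2 fold change of -0.30 (SE 0.16), an adjusted p of 0.9999 in edgeR's quasi-likelihood test and an exact two-sided permutation p of 0.2, where the smallest p that 3 against 3 allows is 0.1. Without WT replicate 1, the WT mean was 1728 and the log2 fold change of Ablim1 was -0.11 (SE 0.10, edgeR adjusted p of 0.9995). The high Ablim1 count of WT replicate 1 stood in the library with 1575 CPM of cerebellar granule cell markers and 3589 CPM of 9 Purkinje cell markers (1312 to 1725 in the others). Ppp1r17, outside this list and placed by the paper mainly in Purkinje cells, was at 1022 normalized counts there and at 9.12 to 47.7 elsewhere. The sum of the 9 markers was not traced to Purkinje cells in the other libraries. The part of cerebellar cells in the Ablim1 count was not tested. The sum of 8 oligodendrocyte markers was 12020, 4598 and 4982 CPM in WT and 6651, 6452 and 11385 CPM in Sgo1-/+, highest in each group in the library with the highest Ablim1 count, and its part was not tested either.

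Dmtn (ENSMUSG00000022099, chromosome 14 from 70602184 to 70636048), whose product bundles actin filaments and is best known from the red cell membrane skeleton, varied most in WT. Its normalized counts were 1767, 2730 and 4292 in WT and 3741, 4205 and 3912 in Sgo1-/+. The WT values ran from the lowest to the highest of all 6 libraries and thus enclosed the Sgo1-/+ values. The log2 fold change was 0.43 (SE 0.30, edgeR adjusted p of 0.9999), with an exact two-sided permutation p of 0.4. It was 0.17 without WT replicate 1 and 0.82 without WT replicate 3, with an edgeR adjusted p of 0.764 in the latter. The sum of 10 cortex markers was 246, 440 and 620 CPM in WT and 486, 499 and 641 CPM in Sgo1-/+, also lowest in WT replicate 1, and its part in the Dmtn values was not tested.

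**Figure D2:**
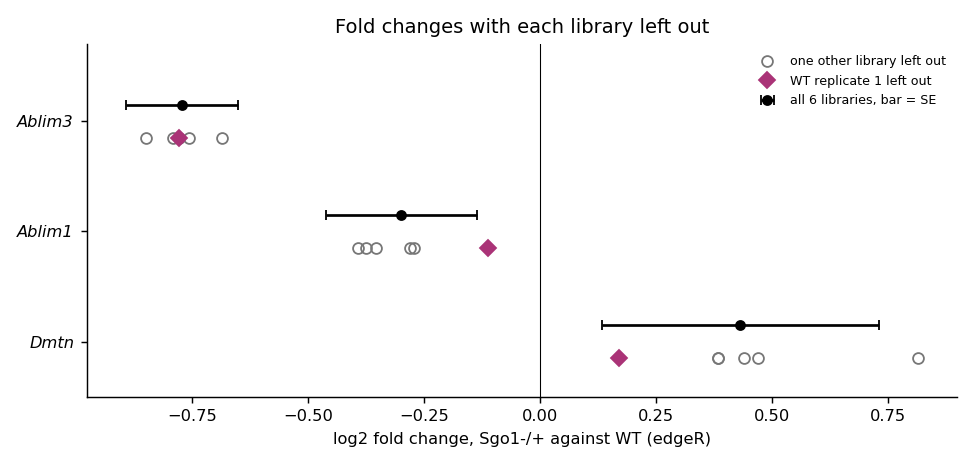
Log2 fold changes of Sgo1-/+ against WT from edgeR (horizontal axis); filled circles with bars are all 6 libraries with the SE, open circles leave out one other library, and diamonds leave out WT replicate 1. Ablim1 moves from -0.30 to -0.11 without WT replicate 1, and Dmtn lies between 0.17 and 0.82. Ablim3 lies between -0.85 and -0.69, but it was chosen by these counts, so its narrow range adds nothing.

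To compare the genes with each other, counts were divided by the merged exon length in kilobases and expressed as CPM. On this scale of level per kilobase, the mean level over 6 libraries was highest for Dmtn at 29.1 ± 8.39 (SD, n = 6), followed by Ablim1 at 12.4 ± 2.34 and Ablim3 at 8.76 ± 2.56. Dmtn, Ablim1 and Ablim3 lay at the percentiles 89.7, 74.4 and 65.7 of the 16084 tested genes with a length, so all 3 belonged to the better expressed part of the brain transcriptome. In WT, the level per kilobase was 24.8 ± 10.8 for Dmtn, 13.6 ± 2.87 for Ablim1 and 11.1 ± 0.183 for Ablim3 (SD, n = 3). The WT libraries of Dmtn (14.9 to 36.3) and Ablim1 (11.8 to 17.0) overlapped, and those of Ablim1 began just above those of Ablim3 (10.95 to 11.27), with means that differed by less than the SD of Ablim1. Within WT replicate 1 the order of Dmtn and Ablim1 was reversed, with Ablim1 at 17.0 and Dmtn at 14.9. In Sgo1-/+, the levels were 33.4 ± 1.98 for Dmtn, 11.1 ± 0.717 for Ablim1 and 6.47 ± 0.739 for Ablim3, and the lowest library of each gene was above the highest library of the next. The steps in Sgo1-/+ were thus wider than the spread, although that between Ablim1 and Ablim3 contains the values by which Ablim3 was chosen. With the longest transcript as the length, the order of the 3 genes was the same, with mean levels of 52.6 for Dmtn, 20.7 for Ablim1 and 8.77 for Ablim3.

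Within a library, the ratio of Ablim3 to Ablim1 can be read without any scaling between libraries. The log2 ratio of their counts was -2.03, -1.47 and -1.55 in WT and -1.99, -2.08 and -2.46 in Sgo1-/+. WT replicate 1, in which Ablim1 was high, lay among the Sgo1-/+ libraries, so the ratio overlapped between the groups. Its mean was -1.68 ± 0.30 in WT and -2.18 ± 0.25 in Sgo1-/+ (SD, n = 3 each). The mean ratio in Sgo1-/+ minus that in WT was -0.50 on the log2 scale, and -0.67 without WT replicate 1. The ratio contains the values by which Ablim3 was chosen, and no test is given.

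**Figure D3:**
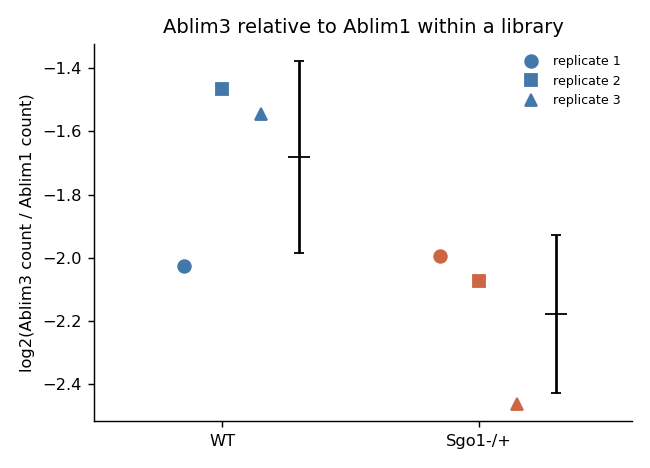
Log2 ratio of Ablim3 to Ablim1 counts (vertical axis) in 3 WT (blue) and 3 Sgo1-/+ (orange) libraries; the marker shape gives the replicate, and the horizontal line and bar give the mean and SD. WT replicates 2 and 3 lie at -1.47 and -1.55, above the Sgo1-/+ libraries at -1.99 to -2.46, while WT replicate 1 at -2.03 lies among them.

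Over the 6 libraries, Ablim1 and Ablim3 did not move closely together (Pearson r = 0.544 of log2 counts, a description over 6 libraries that share their genotype groups). Ablim1 ran opposite to Dmtn (r = -0.865), with WT replicate 1 the highest library of Ablim1 and the lowest of Dmtn. Ablim3 had r = -0.563 with Dmtn.

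The 5 genes whose log2 counts were most like Ablim3 over the 6 libraries, of 12989 genes with a mean of at least 50 normalized counts, were Kcnd3 (r = 0.992), a voltage-gated potassium channel of the A-type current, Sh3bgrl2 (r = 0.989), a small protein with a thioredoxin-like fold, Traf7 (r = 0.983), a ubiquitin ligase, Bmpr1a (r = 0.982), a receptor for bone morphogenetic proteins, and Mia3 (r = 0.977), which loads collagen into vesicles at the endoplasmic reticulum. In all, 61 genes had an r over 0.9 with Ablim3. Sh3bgrl2 came nearest to Ablim3 in size, with normalized counts of 737, 762 and 694 in WT and 563, 517 and 453 in Sgo1-/+, a log2 fold change of -0.52. The others had the same shape at a far smaller size: Kcnd3 was at 1288, 1313 and 1264 in WT and 1152, 1111 and 1065 in Sgo1-/+ (log2 fold change of -0.22), and those of Bmpr1a, Mia3 and Traf7 were -0.15, -0.14 and -0.08. Likeness to a gene that separates the groups picks genes that separate them too, so these differences have no test.

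The genes most like Ablim1 followed WT replicate 1 instead. Among them were Lrsam1 (r = 0.997), a ubiquitin ligase, Jup (r = 0.994), the junction protein plakoglobin, Steap2 (r = 0.994), a metalloreductase, and Parp8 (r = 0.992), an ADP-ribosyltransferase. Each of these had its highest count in WT replicate 1. Steap2 was at 1226 there and at 391 and 378 in the other WT libraries, and at 291, 269 and 430 in Sgo1-/+, while Jup was at 907 in WT replicate 1 and from 593 to 670 elsewhere. An r over 0.9 with Ablim1 was reached by 449 genes.

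**Figure D4:**
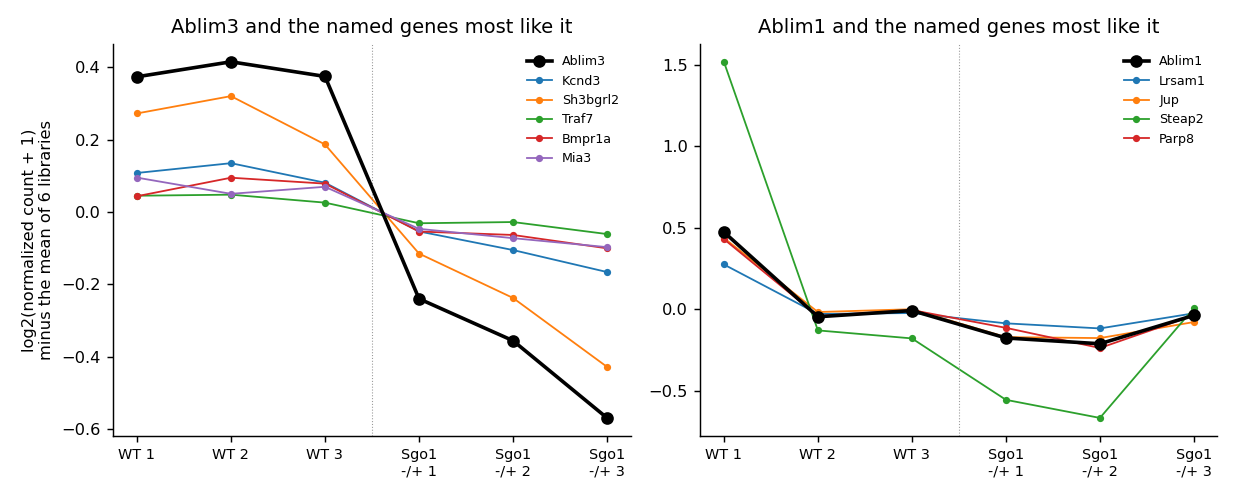
Log2 of normalized count plus 1 in each library, minus the gene's mean over the 6 libraries (vertical axes), for Ablim3 (left, black) and Ablim1 (right, black) with the genes named in the text as most correlated with each (colours). The genes like Ablim3 step down between WT and Sgo1-/+, and those like Ablim1 have their peak in WT replicate 1; lines join libraries for reading only.

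Genes around the abLIM proteins were taken as 5 lists, with Cfl1, Fhl2 and Zyx in 2 of them each. The STARS, MRTF and SRF regulators, to which Ablim3 is linked by STARS, had 7 of 9 genes tested, and 0 of the 7 were at an unadjusted p under 0.05 in edgeR's test, against 2.04% of all genes tested. Their median log2 fold change was 0.11, beside -0.0007 over all genes, with 6 positive and 1 negative. Abra, the gene of STARS, was not tested, with a mean of 2.62 normalized counts in WT and 2.36 in Sgo1-/+, at or near the level that a count of 0 allows. The best expressed per kilobase were the SRF cofactor Mrtfb (level 26.0, log2 fold change 0.33), the GTPase Rhoa (level 19.5, 0.07) and its effector kinase Rock2 (level 17.6). Without WT replicate 1, in which Mrtfb was at 906 normalized counts against 2805 to 3504 in the others, the median of the list was -0.07, and with each other library left out it was between 0.09 (without Sgo1-/+ replicate 1) and 0.24 (without WT replicate 2).

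Of 19 target genes of SRF and MRTF, 18 were tested and 0 were at an unadjusted p under 0.05, with a median log2 fold change of 0.15 (13 positive, 5 negative), which was -0.0084 without Sgo1-/+ replicate 1. The best expressed per kilobase were Actb (level 272), Cfl1 (level 252) and Actg1 (level 98.2), the cytoplasmic actins and the actin-severing cofilin, whose counts are uncertain because near-identical gene copies can share their reads. Vcl, which encodes the adhesion protein vinculin, was the one target whose groups did not overlap (6.85% of all genes tested). It was at 404, 344 and 336 normalized counts in WT and 441, 439 and 429 in Sgo1-/+, with a log2 fold change of 0.27 and an edgeR adjusted p of 0.9999, and it is named after its values were seen. Its direction was opposite to that of Ablim3. As 1 of 18 targets is near the share over all genes, nothing is read from it.

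Relatives of the family by LIM domain or villin headpiece numbered 46, of which 42 were tested. None passed an unadjusted p under 0.05 in edgeR's test (0 of 42), and their median log2 fold change was 0.08, with 26 positive and 16 negative. Leaving out WT replicate 2 lowered that median to 0.0015, leaving out Sgo1-/+ replicate 3 to 0.0050, and leaving out either WT replicate 3 or Sgo1-/+ replicate 1 to 0.04. The best expressed per kilobase were Csrp1 (level 153.7) and Crip2 (level 36.5), small cysteine-rich LIM proteins, and Dmtn, which is in this list. The groups did not overlap for 4 of the 42, Vill, Lims1 and Mical1 with Sgo1-/+ higher (3 genes, beside 3.28% of all genes tested) and Ajuba with Sgo1-/+ lower (1 gene, beside 3.57%), and these too are named after their values were seen. Ajuba, a LIM scaffold of cell junctions, was at 26.2, 21.8 and 26.9 normalized counts in WT and 18.9, 11.2 and 19.9 in Sgo1-/+ (log2 fold change of -0.59, edgeR adjusted p of 0.9999). Vill was at 6.04, 25.3 and 14.9 in WT and 32.55, 52.9 and 26.6 in Sgo1-/+. Its log2 fold change of 1.24 (edgeR adjusted p of 0.9999) was the highest of the list. Those of Lims1 and Mical1 were 0.10 and 0.36. No relative of these 42 had a log2 fold change as low as that of Ablim3, the lowest being the -0.59 of Ajuba. Ablim3 was chosen for its difference between the groups and the relatives were not, so this order adds nothing.

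The netrin ligands and receptors, which lie upstream of UNC-115 in axon guidance, were all tested (11 of 11), with 0 at an unadjusted p under 0.05, 0 with groups that do not overlap (beside 6.85% of all genes tested) and a median log2 fold change of 0.09 (7 positive, 4 negative). The best expressed per kilobase were the receptors Unc5a (level 19.9), Neo1 (level 15.9) and Unc5b (level 8.60). The lowest log2 fold change was the -0.76 of the ligand Ntn1 (edgeR adjusted p of 0.9999), named after its values were seen. Ntn1 was at 566.5, 193 and 173 normalized counts in WT and 222, 199 and 130 in Sgo1-/+, so WT replicate 1 stood far above the rest. Of the 24 Rac and actin effectors of axon guidance, likewise 0 were at an unadjusted p under 0.05, with a median of 0.09, 19 positive and 5 negative. Cfl1 (level 252) and the WAVE complex subunits Cyfip2 (level 142.6) and Nckap1 (level 117) were the best expressed. The groups did not overlap for the GTPase Rac1 (3408, 3570 and 3682 normalized counts in WT, 4127, 3947 and 3804 in Sgo1-/+) and for the WAVE subunit Wasf3, both higher in Sgo1-/+ (2 of 24, beside 3.28% of all genes tested) and both named after their values were seen, with log2 fold changes of 0.16 and 0.12 and edgeR adjusted p-values of 0.9999. Without WT replicate 1 the medians of the netrin and Rac lists were -0.03 and -0.02. The netrin median was also -0.0006 without WT replicate 2, while leaving out WT replicate 3 raised it to 0.20 and leaving out Sgo1-/+ replicate 1 to 0.15. Leaving out WT replicate 3 raised the Rac median to 0.15.

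**Figure D5:**
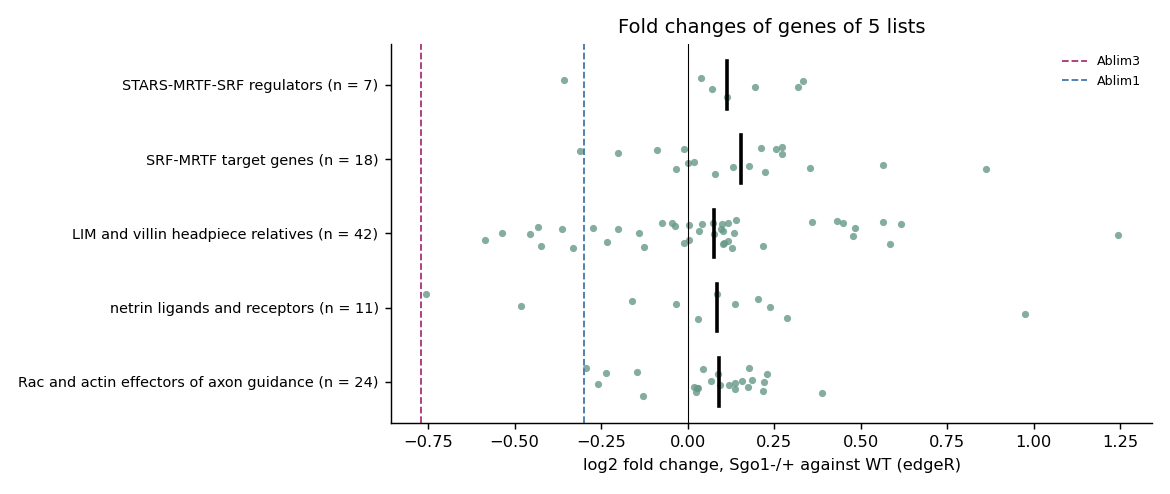
Log2 fold changes of Sgo1-/+ against WT (horizontal axis) for the tested genes of 5 lists (points, n in the row labels), with the list medians as black bars and the values of Ablim3 and Ablim1 as dashed lines. The medians are between 0.08 and 0.15. The leftmost point, Ntn1 at -0.76, lies next to Ablim3 at -0.77, which was chosen on this contrast.

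Markers of other cell types and states were compared between the groups as well. The summed CPM of 12 immediate early genes did not overlap between the groups, at 195, 414 and 229 in WT and 439, 777 and 598 in Sgo1-/+, and its part in the Ablim3 difference was not tested. The sums overlapped between the groups for 8 dentate gyrus markers (316 to 368 CPM in WT, 268 to 331 in Sgo1-/+), 8 pan-neuronal markers (6940 to 9456 and 8229 to 8628), 8 astrocyte markers (4539 to 5810 and 4618 to 5168) and 9 mural and smooth muscle markers (206 to 235 and 194 to 239). The dentate gyrus sum leans on Calb2, at 2346, 1229 and 735 normalized counts in WT and 710, 478 and 236 in Sgo1-/+. It was highest in WT replicate 1, and no dentate gyrus sum was taken without it. The sums of 8 oligodendrocyte markers (4598 to 12020 and 6452 to 11385), 7 choroid plexus markers (50.8 to 1757 and 24.5 to 1961), 6 blood markers (334 to 527 and 116 to 1414) and 8 olfactory bulb markers (118 to 278 and 91.3 to 172) overlapped too. Without WT replicate 1, the WT sums of oligodendrocyte markers (4598 and 4982 CPM) lay below all Sgo1-/+ sums. Those of astrocyte markers (4539 and 4615 CPM) did so by a small margin. The WT sums of olfactory bulb markers (278 and 263 CPM) then lay above all Sgo1-/+ sums. By the study's methods the olfactory bulb had been removed. The dentate gyrus, pan-neuronal, mural, choroid plexus and blood sums still overlapped. With so few libraries, marker sums, that of the immediate early genes included, can separate without any difference between the genotypes, and no test is given. Sgo1-/+ replicate 3, with the lowest Ablim3 count of 311, was high in choroid plexus markers (1961 CPM) and oligodendrocyte markers (11385 CPM), and without it the log2 fold change of Ablim3 was -0.69. WT replicate 1 was also high in both (1757 and 12020 CPM), with Ablim3 at 599. The part of any of these marker sums in the Ablim3 difference was not tested.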

How the data were processed

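RNA of 6 cerebra was sequenced as paired reads on an Illumina MiSeq after TruSeq V2 library construction, a kit that does not mark strand, so sense and antisense reads were counted alike. Alignment by the authors was to mm10 in Strand NGS, and the submitters' processing notes also name BWA and edgeR. The authors deposited an estimated count per gene and library, without normalization. Further deposited columns, with the authors' normalized values and fold changes, gave no value here; their column of the difference between WT and Sgo1-/+ served only to tell which 3 columns are WT. Column headers number the brains and their place in a run. Brains 1 to 3 were taken as WT and 4 to 6 as Sgo1-/+, and the place in the run as the replicate number. The labels do not spell this match out, and every direction rests on it. The sex genes matched the labelled sex in 6 of 6 columns.

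Estimated counts were rounded to whole numbers and fitted with edgeR 4.0.16 in R 4.3.3 (TMM, default filter, quasi-likelihood test, no covariate, Benjamini-Hochberg over 16337 genes). Normalized counts are estimated counts divided by TMM-scaled library size, times its mean. CPM divide the counts by that size. Lengths came from GENCODE, which holds 36308 of the 38087 gene IDs. DESeq2 1.42.0, DESeq2's size factors, other filters, sex, a replicate block and each library left out were alternatives. Likeness is Pearson's r of log2(normalized count + 1).

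Named genes are Ablim1, Ablim3, Dmtn, Sgo1, the 3 best expressed of each list, list genes at an unadjusted p under 0.05 and the 5 most like Ablim3 and Ablim1, except results not reported here. Vcl, Vill, Lims1, Mical1, Ajuba, Rac1, Wasf3, Ntn1, Calb2, Ppp1r17, AA465934, Gm13841 and the row listed as LAMTOR3 fall outside this rule and were picked once their values were known. Xist and Ddx3y only check the labels. The members and lists were chosen with earlier results of these data known. P-values measure the spread between the 3 mice of each group.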

Additional observations from a re-analysis of the deposited data

How the results depend on the processing

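Under 12 alternatives, the log2 fold change of Ablim3 stayed between -0.85 and -0.69, that of Ablim1 between -0.39 and -0.11 and that of Dmtn between 0.17 and 0.82. No sign of these 3 genes changed, and the adjusted p of Ablim1 and Dmtn was between 0.764 and 0.9999 throughout. Ablim3 was chosen for groups that do not overlap, so its steady sign under these alternatives adds nothing. Genes past the adjusted threshold numbered 0 in edgeR and 3 with DESeq2's Wald test, and between 0 and 1 with a library left out; the 1 gene was Gm13841, without Sgo1-/+ replicate 2, named after its values were seen. Genes at an unadjusted p under 0.05 numbered 333, 563 with no filter on low counts, where more genes were tested, and between 240 and 1040 with a library left out (626 without WT replicate 1 and 1040 without WT replicate 3). The median of the SRF and MRTF targets ran from -0.0084 (without Sgo1-/+ replicate 1) to 0.21. The cause was not tested. Mean levels per kilobase rose to 20.7 for Ablim1 and 52.6 for Dmtn with the shorter length of the longest transcript.

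Same-numbered WT and Sgo1-/+ libraries did not deviate together (r = -0.145, 0.0098 and -0.209), and differently numbered ones had r from -0.222 to 0.294. No pairing by number was thus seen. The check cannot exclude one, because WT replicate 1 stood apart from its group. With the replicate block, the log2 fold change was -0.78 for Ablim3, -0.28 for Ablim1 and 0.52 for Dmtn, with 0 genes past the adjusted threshold and 280 at an unadjusted p under 0.05. Depth limits Abra and Sgo1, which were at or near a few counts.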
